A study of Mus musculus with 4 samples.

Results

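The genes described here are 54 genes of fatty acid synthesis, oxidation and storage, out of 32564 genes with a transcript in the annotation used. They were listed by known function, with no threshold on their levels, although earlier results of these data were known when the list was made. They fall into 7 roles: 9 genes of lipogenesis, 8 of elongation and desaturation, 4 of acyl-CoA activation, 19 of beta-oxidation, 4 of binding and uptake, 8 of lipid droplets and 2 of ketone body use. For each gene the TPM (transcript abundance per length, scaled to a fixed total) of all its transcripts were added up in each library, so that a level is corrected for transcript length and can be compared between genes.

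The 4 libraries are 1 group: untreated neural stem cells that the labels call activated, sorted from gfap:GFP transgenic mice of 3 months on a CD1/C57BL/6 mixed background as Prom1+, EGFR+ and GFAP+ cells. The transgene marks cells by Gfap promoter activity, so astrocytes and stem cells both carry it, and Prom1 and EGFR narrow the sort. The series text instead speaks of quiescent stem cells taken 3 days after aCSF or miR204 antagomers; the labels were followed, and no treated or control group was compared. No source states whether different animals gave the libraries, so SDs and p-values measure only the spread between these samples, which may be technical.

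The libraries held 22695719, 20526059, 16978938 and 23727664 estimated counts. The 3 sort markers were above 1 TPM (limma, adjusted p under 0.05), with Gfap at 149 ± 54.4 TPM and Egfr at 89.7 ± 23.1 TPM (SD, n = 4). All 12 stem cell and astrocyte markers passed too. Of all 19914 genes tested 62.8% were above 1 TPM, and the counts of each marker list stand against that share. Markers of other cells were also present. The 6 mature neuron markers summed to 1283.5, 1047, 1039 and 1092 TPM in libraries 1 to 4, and the 8 ependymal markers to 601, 1211, 795 and 997 TPM. All 8 ependymal, 6 of 6 neuroblast, 5 of 6 mature neuron and 4 of 5 oligodendrocyte precursor markers were above 1 TPM. Of 4 choroid plexus markers 1 was. The 9 oligodendrocyte markers summed to 2507, 3618, 3273 and 4320 TPM in libraries 1 to 4, the 10 microglial markers to 211, 432, 592 and 557 TPM, and the 5 erythroid markers to 59.9, 641, 449 and 2342 TPM. Of 8 endothelial and mural markers 2 were above 1 TPM, 5 were below it and 1 had no count. These 8 summed to 40.7, 24.7, 43.7 and 37.8 TPM in libraries 1 to 4. In such bulk RNA, fewer cells of a type and less RNA per cell cannot be told apart.

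As background, cells build fatty acids in the cytosol from citrate: ATP citrate lyase makes acetyl-CoA, acetyl-CoA carboxylase makes malonyl-CoA, and fatty acid synthase joins these units into palmitate. Malonyl-CoA also blocks the carnitine shuttle that carries fatty acids into mitochondria for beta-oxidation, so synthesis and oxidation are linked. In the adult mouse brain both arms have been tied to neural stem cells: Fasn-dependent synthesis to proliferation, and Thrsp and Cpt1a-dependent oxidation to quiescence.

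Several members belong to families of similar sequence, and the reads of such genes can only be divided by the bases in which they differ. The next stretches of 60 coding bases, read from the GRCm38 transcripts, show examples of such bases for 3 families. Each is the first stretch that aligned without a gap and lay in a single exon of each gene. It need not stand for the whole coding sequence. Capitals mark positions at which the members of the set are not all alike. Scd2 lies at chr19:44294963-44295022 on the plus strand, Scd1 at chr19:44406651-44406710 on the minus strand and Scd3 at chr19:44215461-44215520 on the plus strand.
Scd2: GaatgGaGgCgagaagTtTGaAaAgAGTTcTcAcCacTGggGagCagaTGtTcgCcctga
Scd1: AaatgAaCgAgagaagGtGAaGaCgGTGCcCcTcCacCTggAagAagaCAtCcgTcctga
Scd3: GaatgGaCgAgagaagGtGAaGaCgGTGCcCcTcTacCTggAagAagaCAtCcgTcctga
The set differed at 24 of the 60 positions. Scd1 differed from Scd2 at 23 of the 60. Over the whole aligned coding sequence, Scd2 and Scd1 were 90.3% identical, Scd2 and Scd3 88.3% and Scd1 and Scd3 91.5%. The stretch shown is thus less alike than the whole.

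Acot1 (chr12:84009514-84009573, plus strand) and Acot2 (chr12:83988029-83988088, plus strand) are neighbours and were 95.6% identical over the aligned coding bases.
Acot1: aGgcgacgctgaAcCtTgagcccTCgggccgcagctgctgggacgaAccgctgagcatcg
Acot2: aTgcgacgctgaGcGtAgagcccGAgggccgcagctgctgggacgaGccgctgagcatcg
Only 7 positions of this stretch differ. The fatty acid binding proteins stand further apart: Fabp7 (chr10:57785013-57785072, plus strand), Fabp5 (chr3:10012650-10012709, plus strand) and Fabp3 (chr4:130308782-130308841, plus strand) differed at 31 positions of theirs.
Fabp7: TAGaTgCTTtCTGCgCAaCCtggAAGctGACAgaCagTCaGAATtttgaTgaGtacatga
Fabp5: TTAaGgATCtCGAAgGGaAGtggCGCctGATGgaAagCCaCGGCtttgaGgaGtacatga
Fabp3: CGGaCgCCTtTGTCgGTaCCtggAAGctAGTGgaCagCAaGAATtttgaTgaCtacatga
Fabp7 and Fabp3 were 66.9% identical over the coding sequence, and Fabp7 and Fabp5 57%.

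Most of the 54 genes were expressed well above the median of all genes with a count. Of the members, 50 were above 1 TPM, 1 was below it (Plin4) and 3 passed in neither direction (Scd3, Cpt1b and Cd36), in limma's test on log2(TPM + 1) with Benjamini-Hochberg adjustment over 19914 genes. Over all genes tested, 62.8% were above 1 TPM and 23.2% below. The median of the members' mean TPM was 58.0, against 8.34 over all genes tested. The same median was 25.5 over 113 genes of the wider pathway lists described below, 49.7 over cholesterol synthesis and 216 over glycolysis. Together the members took 6760 ± 725 TPM (SD, n = 4), which is 0.676% of all TPM, with 5790 TPM in the lowest library and 7528 TPM in the highest.

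**Figure D1:**
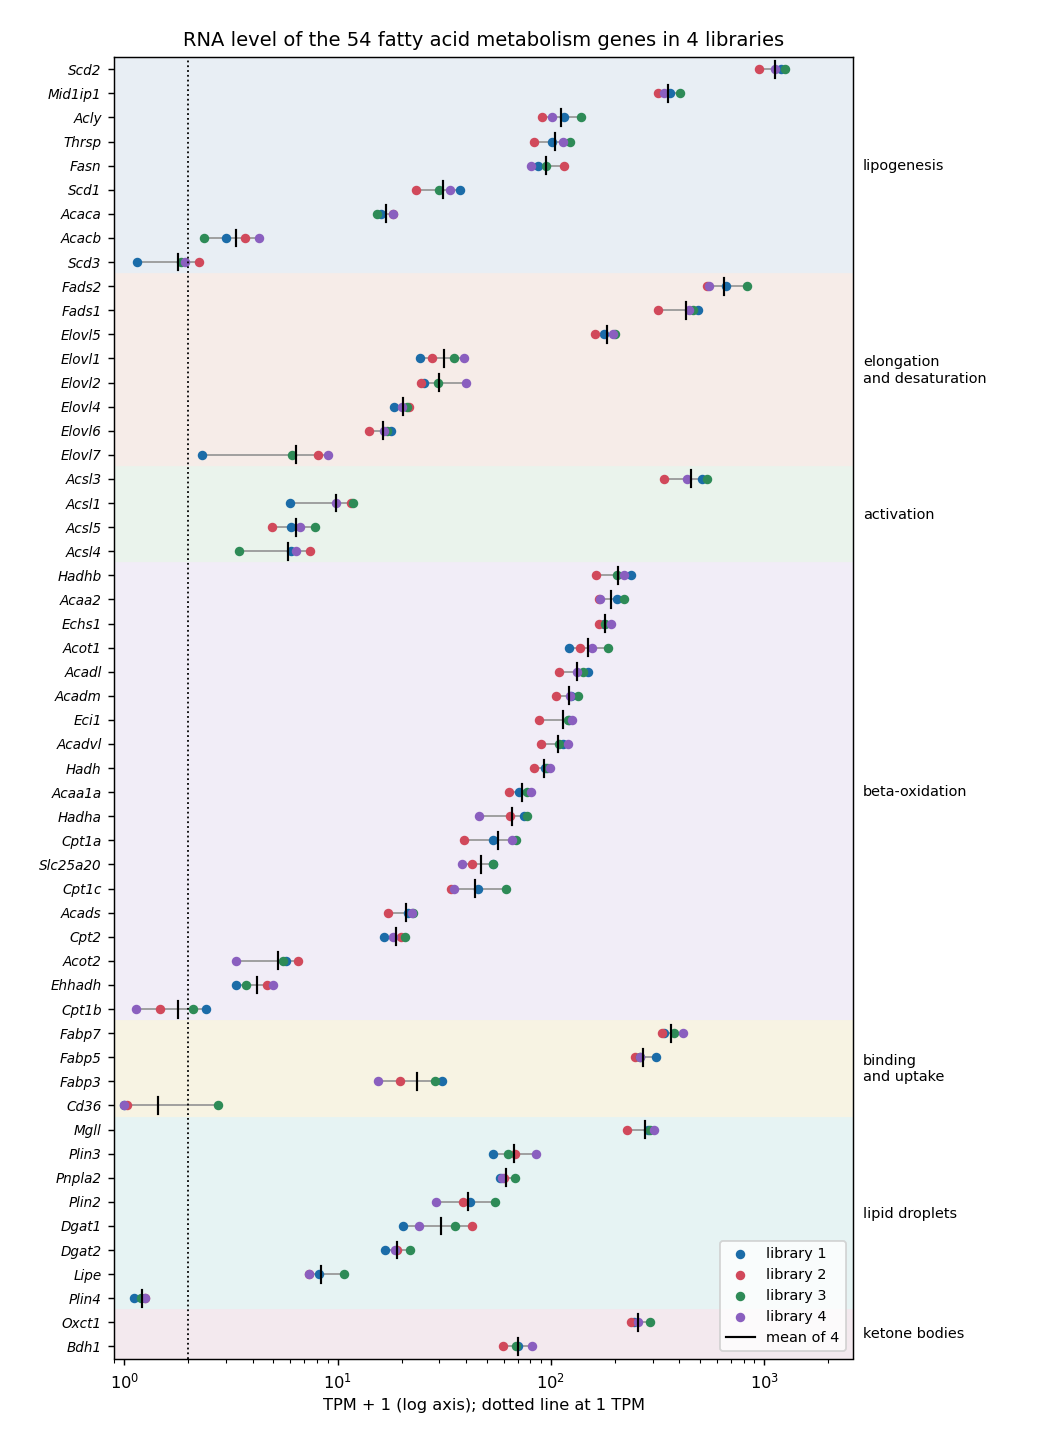
TPM + 1 of each of the 54 genes on a log axis, 1 point per library and 1 row per gene, grouped by role; black ticks are means and the dotted line marks 1 TPM. Scd2 stands highest at a mean of 1127 TPM, and Plin4, Cd36, Cpt1b and Scd3 lie under 1 TPM on average.

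Lipogenesis was led by the desaturase Scd2, and the regulators of acetyl-CoA carboxylase stood at higher levels than the carboxylase itself. The 9 genes summed to 1837 ± 191 TPM, and Scd2 alone gave 61.3% of it. Scd2, the stearoyl-CoA desaturase that makes monounsaturated fatty acids and is the main form in mouse brain, had 1191, 946, 1248 and 1121 TPM in libraries 1 to 4. It ranked 64 among the 19914 genes by mean TPM. Its relatives on chromosome 19 were far lower. Scd1, the main liver form, had 36.3, 22.3, 29.0 and 32.8 TPM, and Scd3, known from mouse skin glands, had 0.144, 1.23, 0.843 and 0.924 TPM. Scd2 was 36.6-fold above Scd1 on the scale of TPM + 1 (log2 ratio 5.19 ± 0.20, SD, n = 4) and higher in each library.

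Mid1ip1, which promotes the assembly of active acetyl-CoA carboxylase, had 361, 317, 400 and 337 TPM. Its partner Thrsp, also called Spot14 and known in mouse as a marker of quiescent neural progenitors, had 99.8, 81.9, 122 and 113 TPM. Mid1ip1 was 3.40-fold above Thrsp, and the levels of the pair did not overlap; the log2 ratio of Mid1ip1 over Thrsp, 1.76, was 2.47 by CPM. Acly, the citrate lyase, averaged 110.5 ± 20.6 TPM and had 115, 89.5, 137 and 100.5 TPM. Fasn, which builds palmitate, averaged 93.5 ± 14.8 TPM and was highest in library 2, at 114 TPM. Acaca, the cytosolic carboxylase, had 14.9, 17.2, 14.3 and 17.2 TPM, so that Fasn was 5.56-fold above it. That log2 ratio of Fasn over Acaca, 2.47, was 3.23 with the most abundant transcript only and 3.21 by CPM, the count share without length correction.

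Acacb, the carboxylase at the mitochondrial surface whose malonyl-CoA acts on the carnitine shuttle, was near the threshold with 2.01, 2.68, 1.36 and 3.28 TPM. Its log2(TPM + 1) was 0.70 above that of 1 TPM (limma, adjusted p = 0.0276), the weakest of the 50 calls. The call was lost without library 1, 2 or 4 and with protein-coding transcripts only. Acaca was 5.19-fold above Acacb in the within-library ratio, and higher in 4 of 4 libraries.

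Elongation and desaturation genes were uneven: both front-end desaturases were abundant and most elongases were not. The 8 genes summed to 1354 ± 205 TPM and all were above 1 TPM. Fads2, which starts the desaturation of dietary polyunsaturated fatty acids, had 660, 538, 830 and 550 TPM. Fads1, the next desaturase of that path, had 486, 315, 464 and 444 TPM. Fads2 was 1.5-fold above Fads1 in TPM and higher in each library, but by CPM without length correction the log2 ratio was -0.70, so that the order of the pair rests on the length correction. Fads2-201, which holds all Fads2 TPM, has 1508 bases in the deposited files and 3150 in the annotation used here, while Fads1-201 has 3456 and 3460. How the order would stand with reads assigned to the longer Fads2 transcript was not tested.

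Elovl5, which elongates polyunsaturated fatty acids between these steps, had 177, 161, 199 and 195 TPM. It was the only elongase whose mean exceeded 100 TPM, the next being Elovl1 at 30.6 ± 6.87 TPM, which makes very long saturated chains. Elovl2, which elongates toward docosahexaenoic acid, averaged 29.0 ± 7.12 TPM and Elovl4, which makes the longest chains, 19.3 ± 1.40 TPM. Elovl6, which extends palmitate, had 16.8, 13.1, 16.1 and 15.5 TPM. Elovl5 was the higher gene against both Elovl2 and Elovl6 in each library, with log2 ratios of -2.64 ± 0.24 for Elovl2 over Elovl5 and -3.49 ± 0.11 for Elovl6 over Elovl5, the last being -4.14 with the most abundant transcript only.

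Elovl7, another elongase of very long saturated chains, varied most among the members with a mean over 1 TPM. It had 1.31, 7.13, 5.14 and 8.05 TPM, a 6.14-fold range with library 1 lowest. The summed oligodendrocyte and erythroid markers were also lowest in library 1 and highest in library 4. The microglial, ependymal, choroid plexus and sort markers were lowest in library 1 too, but highest in library 2 or 3. Neuroblast and mature neuron markers were highest in library 1. The part of any of these lists in the result was not tested. Elovl1 was 5.47-fold above Elovl7. That ratio on the log2 scale, 2.45, was 1.26 with the most abundant transcript only and 0.45 by CPM.

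Activation to acyl-CoA, without which a fatty acid enters neither synthesis of lipids nor oxidation, was led by 1 of the 4 ligases. Acsl3, a ligase of the endoplasmic reticulum and of nascent lipid droplets, had 509, 339, 538 and 434 TPM and gave 96% of the summed TPM of the role. Acsl1, a ligase tied to oxidation in muscle and heart, had 4.99, 10.5, 10.8 and 8.83 TPM. Acsl5 had 5.03, 3.93, 6.82 and 5.65 TPM, and Acsl4, which prefers arachidonic acid, 5.08, 6.40, 2.46 and 5.40 TPM. Acsl3 was 47.4-fold above Acsl1, 71.6-fold above Acsl5 and 79.9-fold above Acsl4. The log2 ratio over Acsl5, 6.16, was 5.43 with the most abundant transcript only, and that over Acsl4, 6.32, was 5.44 by CPM.

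Promoter windows of Acsl3 and Acsl1 are shown because the levels of these ligases are so far apart. They are 250 bases before RefSeq gene starts in GRCm38.p6, plus strand, at chr1:78657575-78657824 for Acsl3 and, for 2 starts of Acsl1, at chr8:46470787-46471036 (window 1) and chr8:46490716-46490965 (window 2). Capitals mark matches on either strand to the GC box, whose letters searched were GGGCGG. They also mark the box of letters CCAAT, in either orientation. The longer motif marked is the sterol regulatory element, searched as TCACCCCAC.
Acsl3: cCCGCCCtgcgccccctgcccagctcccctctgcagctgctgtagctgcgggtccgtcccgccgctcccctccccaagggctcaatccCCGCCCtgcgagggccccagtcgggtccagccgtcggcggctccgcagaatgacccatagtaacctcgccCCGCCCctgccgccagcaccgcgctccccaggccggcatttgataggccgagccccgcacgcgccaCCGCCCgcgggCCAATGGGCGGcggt
Acsl1 window 1: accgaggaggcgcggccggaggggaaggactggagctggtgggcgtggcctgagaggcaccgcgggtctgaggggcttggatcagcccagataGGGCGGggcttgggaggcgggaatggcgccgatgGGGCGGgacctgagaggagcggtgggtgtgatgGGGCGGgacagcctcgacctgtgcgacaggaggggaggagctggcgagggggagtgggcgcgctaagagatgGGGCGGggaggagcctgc
Acsl1 window 2: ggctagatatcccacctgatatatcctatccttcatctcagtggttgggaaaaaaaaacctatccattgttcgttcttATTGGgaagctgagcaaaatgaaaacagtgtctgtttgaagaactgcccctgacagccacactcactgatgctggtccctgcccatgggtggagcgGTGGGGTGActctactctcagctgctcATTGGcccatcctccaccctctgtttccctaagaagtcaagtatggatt
The 6 matches of Acsl3 and the 4 of Acsl1 window 1 are GC boxes apart from 1 CCAAT box in Acsl3, which adjoins a GC box. Among the 46 members with such windows, the sterol element TCACCCCAC was found in 1 (Acsl1, window 2), against 0.555% of all 27025 genes with windows. The GC box was in 63.0% of the members and 35.4% of all genes, and the CCAAT box in 43.5% and 37.5%. The E-box, searched as CACGTG, was in 6.52% of the members and 6.86% of all genes. These are matches of letters, counted on both strands; sites were not measured.

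No single gene led beta-oxidation. The 19 genes summed to 1613 ± 160 TPM, 18 were above 1 TPM, and the leading gene, Hadhb, gave 12.7% of the sum. Mean levels ran from 0.779 TPM for Cpt1b to 205 TPM for Hadhb. The plot of summed TPM by role sets the roles side by side.

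**Figure D2:**
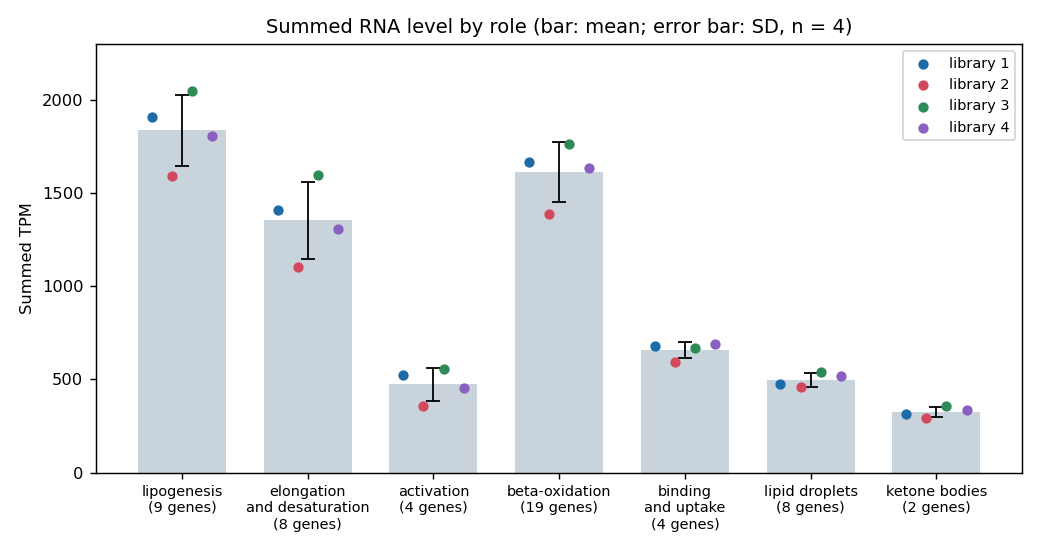
Summed TPM of the members of each role, 1 point per library; bars are means and error bars SDs over 4 libraries. Lipogenesis (1837 TPM), beta-oxidation (1613 TPM) and elongation and desaturation (1354 TPM) are the highest roles, and ketone bodies (325 TPM), with 2 genes, the lowest. The stearoyl-CoA desaturases were counted under lipogenesis, where Scd2 alone gave 61.3% of the sum. The order of the highest roles therefore depends on the role in which Scd2 is placed.

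At the entry to mitochondria, Cpt1a, the carnitine palmitoyltransferase that limits oxidation in most tissues, had 52.6, 38.1, 67.3 and 64.9 TPM. Cpt1c, a neuronal form of the endoplasmic reticulum with little transferase activity, had 44.4, 32.95, 60.8 and 34.3 TPM, and the ranges of the pair overlapped. Within each library Cpt1a was the higher, by 1.29-fold on average with a log2 ratio of 0.37 ± 0.36; library 4 stood apart at 0.90. With the most abundant transcript only the log2 ratio was 1.05, and by CPM 1.14. Cpt1b, the muscle form, had 1.41, 0.476, 1.10 and 0.135 TPM and did not differ from 1 TPM by limma (adjusted p = 0.327). Of its words of 31 bases, 93.7% also occur in Gm44502, an overlapping gene model, so that its level depends on how reads were divided.

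Past that step, Slc25a20, the carnitine-acylcarnitine carrier, averaged 46.0 ± 7.72 TPM, and Cpt2, which remakes acyl-CoA inside, 17.9 ± 1.84 TPM. Cpt1a was 2.95-fold above Cpt2 in TPM, with log2 ratios of 1.56 in TPM and 2.53 by CPM. The acyl-CoA dehydrogenases take the first oxidation step at different chain lengths. Acadl, for long chains, averaged 131.5 ± 17.2 TPM, Acadm, for medium chains, 121 ± 11.8 TPM, and Acadvl, for very long chains, 107.5 ± 13.3 TPM. With all transcripts counted these 3 lay close together: Acadl was 1.22-fold above Acadvl and 1.08-fold above Acadm, in each case in 4 of 4 libraries. Retained intron transcripts held 28.9% of Acadm TPM. With protein-coding transcripts only, log2(TPM + 1) was above that of 1 TPM by 6.02 for Acadl, 5.66 for Acadvl and 5.41 for Acadm. Acads, for short chains, was lower at 19.9 ± 2.46 TPM, and Acadm was 5.84-fold above it.

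The highest mean levels of the path were those of Hadhb, Acaa2 and Echs1, all of later steps. Other enzymes of later steps, such as Hadh, lay below Acadl. Hadhb, the thiolase subunit of the mitochondrial trifunctional protein, had 235, 162, 203 and 219 TPM. Acaa2, the mitochondrial thiolase for shorter chains, had 203, 167, 219 and 168 TPM. Echs1, the short-chain enoyl-CoA hydratase, had 175, 167, 179 and 191 TPM and was the steadiest of these. Eci1, an isomerase for unsaturated chains, averaged 113 ± 17.5 TPM with library 2 lowest, and Hadh, the short-chain hydroxyacyl-CoA dehydrogenase, 92.2 ± 6.70 TPM.

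Hadha, which encodes the other subunit of the trifunctional protein and lies head to head with Hadhb on chromosome 5, had 74.2, 63.6, 76.4 and 45.1 TPM. Its log2 ratio over Hadhb was -1.66 ± 0.42, and Hadhb was the higher in each library. Only 18% of Hadha TPM fell on transcripts annotated as protein-coding. The leading transcript, Hadha-201, is annotated as a processed transcript of 2552 bases and took 61.3%, at 44.1, 40.9, 44.2 and 29.7 TPM. Counting protein-coding transcripts alone, the log2 ratio of Hadha over Hadhb was -4.0.

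In the peroxisome, Acaa1a, a thiolase, averaged 72.0 ± 7.66 TPM, while Ehhadh, a bifunctional enzyme of that organelle, had 2.33, 3.68, 2.71 and 4.005 TPM. The acyl-CoA thioesterases, which release free fatty acids, differed sharply. Acot1, the cytosolic form, had 120, 136, 184 and 154 TPM. Acot2, the mitochondrial form, had 4.71, 5.53, 4.54 and 2.36 TPM. Acot1 was 28.8-fold above Acot2, and the ranges were far apart. Of their words of 31 bases, 38.9% of those of Acot1 and 37.7% of those of Acot2 occur in other genes, mostly in each other.

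**Figure D3:**
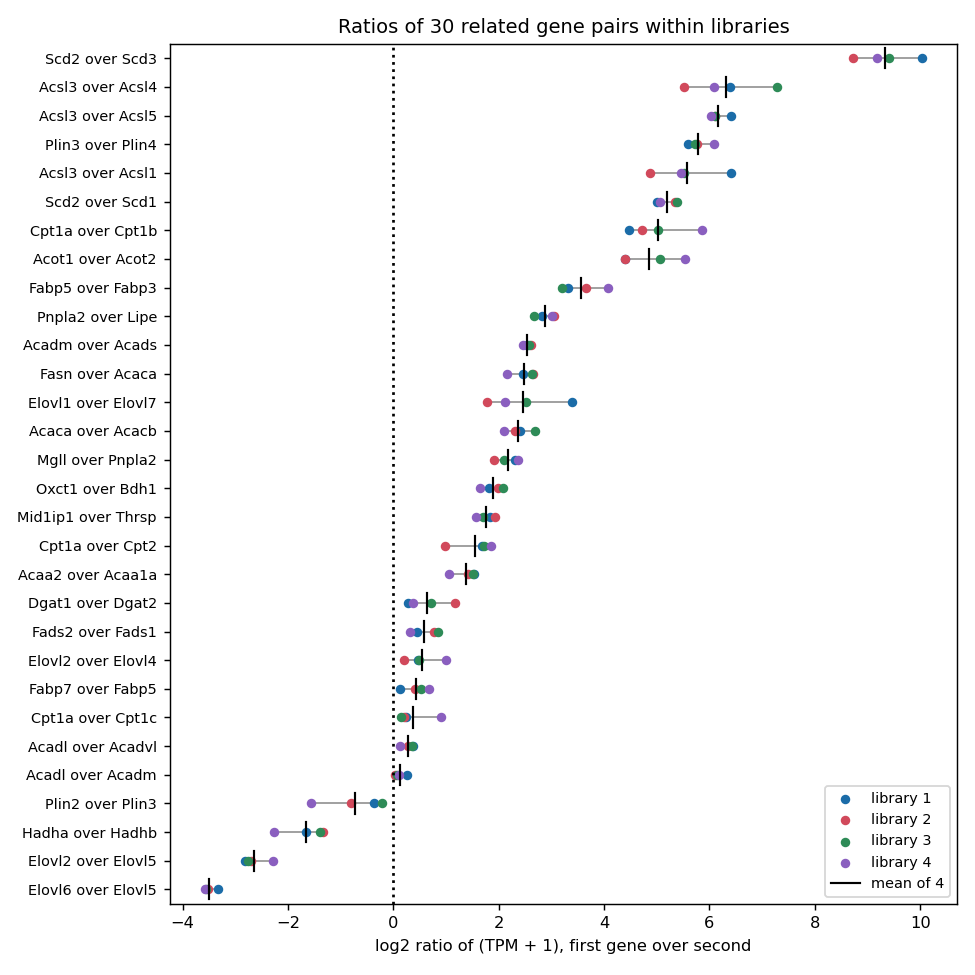
log2 ratio of TPM + 1 for the 30 pairs of related genes, 1 point per library, with 0 marking equal levels. In every pair the 4 libraries lie on the same side of 0, from Scd2 over Scd3 at 9.34 (10.5 with a pseudocount of 0.1 and 10.6 by CPM) down to Elovl6 over Elovl5 at -3.49; Acadl over Acadm, at 0.12, is nearest to 0.

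The pairs of related genes, 30 in all, were compared within each library by TPM of all transcripts. In all 30 the direction was the same in 4 of 4 libraries. The exact two-sided sign-flip permutation test gave p = 0.125 for each, which is the smallest value that 4 libraries allow, and 0.125 after adjustment over the 30 pairs. No pair can therefore pass a threshold of 0.05. In 21 pairs the difference was over 2-fold in each library, and in 22 it was so on average. These counts were not made for unrelated gene pairs, so no background share stands beside them.

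Binding and uptake showed abundant intracellular carriers and little RNA of Cd36, the fatty acid translocase. Fabp7, the brain fatty acid binding protein of radial glia and astrocytes, had 337, 329, 378 and 414 TPM. Fabp5, the epidermal form, had 310, 247.5, 262 and 260 TPM. Fabp7 was 1.35-fold above Fabp5 in TPM; by CPM the log2 ratio was -0.039, so the order of the pair depends on the length correction. Fabp3, the heart form, had 30.04, 18.6, 27.6 and 14.5 TPM, and Fabp5 was 11.9-fold above it.

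Gm6166, an annotated processed pseudogene, holds 27.2% of the words of 31 bases of Fabp5 and was given 139 ± 10.9 TPM, so the level of Fabp5 depends on how reads were divided. For Fabp3, 50.1% of such words occur in other genes, the most in Fabp3-ps1, which was at 0 TPM. Cd36, a surface receptor for fatty acids found on microglia and endothelium, had 0, 0.0286, 1.76 and 0 TPM, from 0, 1, 51 and 0 estimated counts. A count of 0 allows up to 0.0817 TPM in library 1 and 0.0797 TPM in library 4 (3 counts per library, counting error only). Cd36 did not differ from 1 TPM (limma, adjusted p = 0.0716); without library 3 its mean was 0.0095 TPM and it was below 1 TPM. The summed microglial markers were highest in library 3 too, at 592 TPM, but nearly as high in library 4, at 557 TPM, where Cd36 was at 0. The endothelial and mural markers summed to 40.7, 24.7, 43.7 and 37.8 TPM in libraries 1 to 4. The part of either list in the result was not tested.

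Genes of lipid droplets were led by an enzyme of breakdown. Mgll, the lipase that frees glycerol from monoacylglycerol and, in brain, clears the endocannabinoid 2-arachidonoylglycerol, had 285, 227, 290 and 302 TPM, 55.4% of the role's 498 ± 37.2 TPM. Pnpla2, the triglyceride lipase that starts the breakdown, had 56.98, 59.5, 66.7 and 58.1 TPM. Lipe, the hormone-sensitive lipase of the middle step, had 7.17, 6.33, 9.70 and 6.34 TPM. Mgll was 4.5-fold above Pnpla2, and Pnpla2 7.39-fold above Lipe. The log2 ratio of Pnpla2 over Lipe was 2.89, and 2.05 with protein-coding transcripts only.

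Of the 3 perilipins among the members, which coat droplets, Plin3 and Plin2 were well above Plin4. Plin3, which binds early droplets, had 52.4, 67.1, 62.1 and 84.5 TPM, and Plin2, the coat of droplets in most tissues, 40.6, 37.9, 53.6 and 28.1 TPM. Their ranges met, at 52.4 TPM for Plin3 and 53.6 TPM for Plin2, but within each library Plin3 was the higher. The log2 ratio of Plin2 over Plin3 was -0.73 ± 0.60 in TPM, with -0.21 in library 3 and -1.56 in library 4; it was -1.33 with the most abundant transcript only and -1.34 by CPM. Plin4, an adipocyte and muscle form, had 0.114, 0.258, 0.195 and 0.258 TPM and was below 1 TPM by 0.73 on the log2 scale (limma, adjusted p = 9.16e-05). The final enzymes of triglyceride synthesis were both present. Dgat1 had 19.3, 41.5, 34.6 and 23.1 TPM and Dgat2 15.7, 17.9, 20.8 and 17.6 TPM, with Dgat1 1.55-fold higher over all transcripts. Retained intron transcripts held 32.4% of Dgat1 TPM. Its leading coding transcript, Dgat1-201, had 14.6, 26.1, 26.3 and 13.1 TPM. Dgat2-201 had 14.3, 13.8, 14.3 and 15.2 TPM, and was the higher of these transcripts in library 4.

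Both genes of ketone body use were abundant. Oxct1, which activates acetoacetate for oxidation outside the liver, had 245, 236, 289 and 255 TPM. Bdh1, which interconverts the ketone bodies, had 69.2, 58.9, 67.3 and 80.5 TPM, and Oxct1 was 3.69-fold above it.

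How a gene's TPM divided among its transcripts also differed between members. In 38 members at least 90% of TPM fell on protein-coding transcripts, in 13 between 60 and 90%, and in 3 under 60%. Those 3 were Hadha, Pnpla2 at 43.6% and Mgll at 51.6%. For Pnpla2 the leading transcript, Pnpla2-201 with 53.3%, is annotated as a target of nonsense-mediated decay, and its level was 31.1, 33.04, 34.3 and 30.1 TPM. For Mgll the leading one, Mgll-209 with 44.3%, carries the same annotation, at 127, 99.5, 126 and 137 TPM. These are annotated types of the transcripts to which reads were assigned; protein was not measured.

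**Figure D4:**
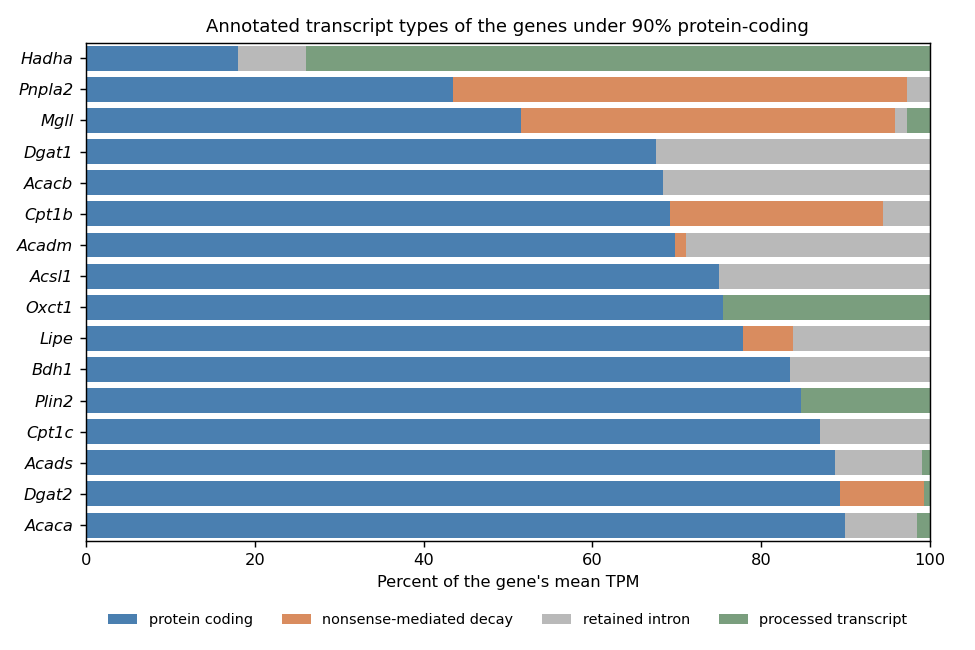
Percent of the mean TPM that fell on protein-coding, nonsense-mediated decay and other annotated transcript types, for the members with under 90% on protein-coding ones. Hadha stands lowest for protein-coding transcripts at 18%, followed by Pnpla2 at 43.6% and Mgll at 51.6%.

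The leading coding transcript had the same length in the deposited files and in the annotation for 40 of the 54 members, and differed by over 5% for 5. Besides Fads2 these were Acot1 (1559 bases deposited, 2272 annotated), Plin3 (2159 and 3645), Acsl5 (3150 and 4243) and Elovl7 (5435 and 4013). The ratios of these genes carry the deposited lengths, and the effect of the other lengths on them was not tested.

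Sequence shared with other genes touched a minority of members. Of the 54, 31 shared no word of 31 bases with another gene, 9 shared under 5% and 14 shared 5% or more. The highest shares after Cpt1b were in Hadhb, with 65.2%, where the pseudogene Gm13910 was at 0 TPM, and in Fabp3. For Acadvl it was 32.7%, all with the overlapping gene Dvl2, which had 35.4 ± 7.69 TPM. For Acaa1a it was 46.0%, mostly with Acaa1b, which had 2.54 TPM. For Scd2 it was 6.29%, for Scd1 8.20% and for Scd3 15%, the most of the last with Scd1. The low level of Scd3 therefore depends on how reads were divided.

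Library 2 was the low one for most members. Among the 42 members of at least 10 TPM, it was lowest in 28 (66.7%), against 32.6% of all 9433 genes at that level. The members' median log2 difference of library 2 from the other 3 was -0.25, against -0.07 over all those genes. With TPM rescaled over nuclear protein-coding genes, library 2 was lowest in 20 members (47.6%), against 22.3% of all genes. Without that rescaling, it was lowest too in 13 of 19 genes of cholesterol synthesis and 13 of 16 of glycolysis. Among 79 genes of the wider pathway lists described below, at that level, it was lowest in 31 (39.2%). Their median log2 difference of library 2 from the other 3 was -0.11. The summed stem cell and astrocyte markers were 23246, 19663, 25385 and 24163 TPM, lowest in library 2 as well; their part in the result was not tested. Among the lipid droplet genes, library 1 was lowest in 4 of 6, against 30% of all genes at that level, and the difference between roles was not tested. Over the 42 members the median SD of log2(TPM + 1) was 0.20, against 0.25 over all genes at that level.

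**Figure D5:**
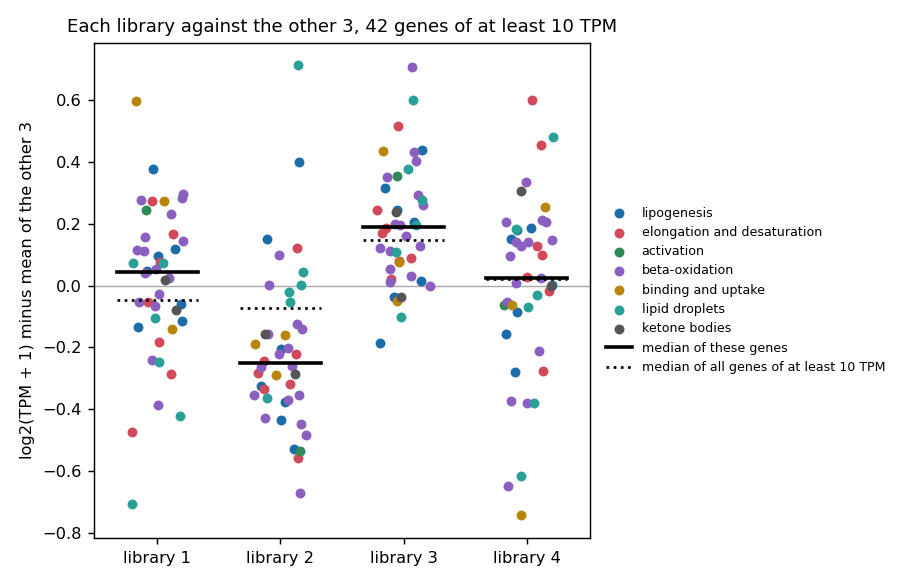
log2 difference of each library from the mean of the other 3, for members of at least 10 TPM, coloured by role; solid lines are medians of the members and dotted lines medians of all genes at that level. Library 2 lies below 0 for most genes, with a median of -0.25 over the 42 members, and library 3 above it, with a median of 0.19.

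The wider pathway was measured on lists of other genes, 113 in all, of which 89 were above 1 TPM, 6 below, 13 in neither direction and 5 had no count. Over all genes tested, 62.8% were above 1 TPM and 23.2% below, and the counts of each list stand against those shares. Of 19 regulators 16 were above 1 TPM. Srebf1, the factor that switches on lipogenic genes, had 222, 277, 337 and 298 TPM, and Insig1, which holds sterol regulatory proteins in the endoplasmic reticulum, averaged 187 ± 49.7 TPM. Nr1h2, a liver X receptor, averaged 109 ± 13.5 TPM. The lowest were Pparg, the adipocyte factor, at 1.60 ± 1.09 TPM and Ppard at 1.07 ± 0.787 TPM, neither of which differed from 1 TPM (limma, adjusted p = 0.393 and 0.908).

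Of 20 other synthesis and elongation genes 16 were above 1 TPM. Tecr, the reductase that ends each elongation cycle, averaged 539.9 ± 60.2 TPM, more than any elongase. Acsl6, an acyl-CoA ligase of brain, averaged 268 ± 42.7 TPM, so that the ligase list above does not hold every abundant ligase. Elovl3, known from skin and brown fat, had 0, 0, 0.547 and 0 TPM and was below 1 TPM.

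Of 29 other oxidation genes 26 were above 1 TPM. Dbi, which binds acyl-CoA and is the diazepam binding inhibitor, was the highest of all these genes at 1906, 2378, 2108 and 2114 TPM, and there library 2 was the highest. Etfa and Etfb, the subunits that pass electrons from the dehydrogenases, averaged 195 ± 13.9 and 180 ± 19.4 TPM. Eci3 was below 1 TPM, and Acox2, a peroxisomal oxidase of bile acid precursors, spread over 2.46, 0, 2.50 and 10.2 TPM.

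Of 28 other droplet and glycerolipid genes 22 were above 1 TPM, led by Agpat3, an acyltransferase of phospholipid synthesis, at 162 ± 10.5 TPM. Soat1, which esterifies cholesterol, averaged 97.3 ± 16.9 TPM, and its intestinal and liver relative Soat2 was below 1 TPM at 0.149 ± 0.0317 TPM. Fitm1 had no count. Of 11 other uptake and binding genes 4 were above 1 TPM. Slc27a1, a fatty acid transport protein, had 457, 479.7, 671 and 452 TPM and was the highest of these. Mfsd2a, which carries lysophosphatidylcholine with docosahexaenoic acid, averaged 38.9 ± 5.33 TPM. Fabp1, Fabp2, Fabp6 and Slc27a6 had no count in any library.

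Of 6 other ketone body genes 5 were above 1 TPM. Acat1, the mitochondrial acetoacetyl-CoA thiolase, averaged 102 ± 12.7 TPM. Slc16a7, a monocarboxylate carrier, averaged 4.23 ± 4.76 TPM and ranged up to 11.4 TPM in library 4. As compared pathways, all 20 genes of cholesterol synthesis and 16 of 17 of glycolysis were above 1 TPM, with median log2(TPM + 1) of 5.64 and 7.76, against 5.86 for the 54 genes.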

How the data were processed

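Cells were sorted by flow cytometry, RNA was extracted with the PicoPure kit, and cDNA was made with SMART-Seq v4, per the labels' protocols; such cDNA is amplified and no molecular identifiers are named. kallisto and sleuth were used with mm10, per the submitters' processing notes, while no version or transcript release is given in those notes. The deposited estimated counts divide reads shared by several transcripts by estimate. The deposited TPM values are those counts per effective length, scaled to a fixed total, so a level depends on all other RNA in the library.

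Transcripts were summed per gene with GENCODE annotation of GRCm38: of 99567 transcripts 98294 matched, giving 32564 genes, and 1273 were left out. For the 19914 genes with a count, log2(TPM + 1) was tested against its value at 1 TPM with limma 3.58.1 (R 4.3.3), using a trend of variance on mean; p was two-sided, and calls were made at 0.05 after Benjamini-Hochberg adjustment. edgeR 4.0.16 on rounded counts was an alternative. On simulated data for this comparison (19914 genes), the calls took in 3% of genes set at 1 TPM, 82.5% at 2 TPM and 100% at 4 TPM. The simulated counts had the same dispersion setting for every gene. These shares may therefore not hold for genes that spread more between libraries, such as Elovl7 and Cd36. Folds are on the scale of TPM + 1. Depth was 16978938 to 23727664 estimated counts per library. Library numbers are names in accession order. Sequences and shared words of 31 bases came from the annotation's transcripts, of which some differ in version from those in the deposited files (92612 of the matched ones have the same version). RefSeq promoter windows matched 46 of 54 members; Dgat1, Dgat2, Scd1, Scd2, Cpt1b, Fabp5, Fads1 and Acaa2 had none.

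The members and lists were chosen with earlier results of these data known. All members could be named, with per-library values for the highest 3 and lowest 2 of a role and for described pairs, up to 3 of the highest and 2 of the lowest in other lists, and the highest 2 of marker lists and compared pathways. Alternatives were a pseudocount of 0.1, a minimum of 5 mean counts, protein-coding or most abundant transcripts only, CPM without length, rescaling, other normalizations, edgeR and leaving out each library. Some genes of the other lists are not reported here by name.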

Additional observations from a re-analysis of the deposited data

Results flagged for a closer look

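A test for a sample far from the other 3 was run on 91 results, and 3 were flagged. Chance alone marks about 1 in 20 groups, so 3 of 91 is no more than that share. Eci1 was low in library 2, at 86.5 TPM. Cd36 was high in library 3, at 1.76 TPM. The log2 ratio of Cpt1a over Cpt1c was high in library 4, at 0.90, where Cpt1c was at 34.3 TPM and Cpt1a at 64.9 TPM.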

How the results depend on the processing

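No paired analysis was possible because the labels give a single group. Members above 1 TPM were 49 or 50 under the alternatives run for this count, which did not include CPM. Members below 1 TPM were 1, and 2 with the pseudocount of 0.1, with a minimum of 5 mean counts and with the most abundant transcript only; leaving out each library gave 1 to 2. The added gene was Cd36, whose log2 difference from 1 TPM was -2.31, -0.62 and -0.66 in these settings and -0.99 without library 3. Acacb lost its call without library 1, 2 or 4 (0.74, 0.64 and 0.57), fell short with protein-coding transcripts only (0.35, adjusted p = 0.111) and reversed with the most abundant transcript only (-0.11); the cause was not tested. By CPM the ratios of Fads2 over Fads1 (-0.70) and of Fabp7 over Fabp5 (-0.039) reversed, where length is not corrected. Group medians of log2(TPM + 1) moved by more than the spread for rescaled TPM: lipogenesis 6.85, elongation and desaturation 5.33, activation 3.40, beta-oxidation 6.64, binding and uptake 6.71, lipid droplets 5.52 and ketone bodies 7.49, while the median of all genes shifted by 0.38. With the most abundant transcript only they were 6.04 for lipogenesis, 4.54 for elongation and desaturation, 2.69 for activation, 5.92 for beta-oxidation, 4.55 for lipid droplets and 5.80 for ketone bodies. With protein-coding transcripts only they were 6.06 for beta-oxidation, 4.59 for lipid droplets and 6.73 for ketone bodies. The estimated counts behind the uncalled genes differed between libraries, with 7.4 to 59.4 for Scd3, 1.5 to 49.0 for Cpt1b and 0 to 51 for Cd36.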

Other observations

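Some further genes were named after their values were seen. Plin5, a perilipin of oxidative tissues, had 6.09, 36.0, 15.8 and 19.3 TPM, with library 1 lowest. Agpat4, an acyltransferase, averaged 30.4 ± 14.8 TPM (SD, n = 4). Cidea, a droplet protein of brown fat in mouse, averaged 6.30 ± 4.05 TPM and was above 1 TPM (limma, adjusted p = 0.0221).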
